A study of Homo sapiens with 23 samples.

Results

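The genes described here are 52 genes known to be induced by estradiol in luminal breast cancer lines. They were chosen by name, with earlier results of these data known. Each name was matched to its row of the count table through the Ensembl identifier in GENCODE release 44. All 52 were found among the 60605 identifiers of the table, and all 52 were among the 26057 genes that passed the filter on low counts. They comprise 9 transcription factors and chromatin proteins, 10 secreted and extracellular proteins, 6 enzymes, 13 signalling, trafficking and cytoskeletal proteins, 4 ubiquitin ligases and chaperones, 5 receptors and adhesion proteins and 5 transporters.

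Estrogen receptor alpha, the product of ESR1, is a nuclear receptor that binds estradiol and then DNA, mostly at enhancers that FOXA1 and GATA3 keep accessible, and recruits coactivators to nearby genes. Most luminal breast tumours depend on it for growth, and its targets span secreted proteins such as TFF1 and CXCL12, coregulators such as GREB1 and NRIP1, and transcription factors such as MYB and RARA. TRPS1 is a GATA-family zinc finger protein that acts mainly as a transcriptional repressor and is abundant in luminal breast cells.

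T47D is a line derived from a luminal breast tumour that expresses the estrogen receptor. In the single clone used here, Clone 28, a degron tag had been placed at the endogenous TRPS1 gene, so that the bifunctional degraders dTAG-13 and dTAGV-1 remove the protein. Cells received 50 nM of each degrader for 0.5, 1, 2, 4 or 24 h, and the controls received 0.1% DMSO for 24 h. Nascent transcription was measured by PRO-seq, a run-on assay that maps RNA still held by engaged RNA polymerase, in 4 libraries per group and in 3 (replicates 2, 3 and 4) at 24 h. All groups, the controls included, carried the tag and grew in serum-containing medium with insulin, without estrogen deprivation, so the values below are not responses to added estradiol. No untagged cells were given the degraders in these libraries, so an effect of the degraders themselves cannot be told apart from TRPS1 loss. The DMSO treatment of 24 h was not matched in length to the shorter degrader times. Replicates were treated and collected at different times of 1 day, and all groups of a replicate were harvested together, so p-values measure the spread between harvests of 1 clone.

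The 23 libraries held between 4408544 and 17571616 counts, with a median of 9768427. Replicate 1 was the shallowest series (4408544 to 7886241) and had up to 6.5% mitochondrial counts, against at most 3.6% elsewhere. Levels are given as CPM, the count divided by the scaled library total, except in the next 4 sentences, which use unscaled totals. The luminal markers KRT8, KRT18, KRT19, EPCAM, CDH1 and ESR1 summed to between 3290 and 3481 CPM in DMSO, and were lower, without overlap, at 0.5 h (3007 to 3284), 1 h (3022 to 3243) and 4 h (2964 to 3274). ESR1 made up most of this sum, at 2124 to 2698 CPM over all libraries, and KRT19 came next at 272 to 350 CPM. The 4 basal or myoepithelial markers summed to between 29.2 and 30.4 CPM in DMSO and were higher, without overlap, at 1, 2, 4 and 24 h (31.2 to 40.7 CPM, with 36.6 to 40.7 CPM at 24 h). Of these 4, KRT5 and KRT14 had at most 3 and 6 counts in any library, TP63 had 107 to 533 counts and ACTA2 36 to 180. The part of these shifts in the results below was not tested. The PRO-seq counts measured TRPS1 nascent RNA and not its protein, and they give no check of the degradation: TRPS1 was between 7997 and 10157 CPM in DMSO and between 9757 and 11979 CPM at 24 h. ESR1, the receptor itself, was not called at any time: it was at 2536, 2358, 2686 and 2527 CPM in DMSO, and its log2 fold changes ran from -0.07 to -0.04 (edgeR adjusted p of at least 0.875).

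The sequence around the start of these genes was examined because the estrogen receptor and GATA-family proteins such as TRPS1 recognise short DNA motifs. RefSeq windows of 250 bases before annotated starts on GRCh38.p14 were held for 40 members, in 66 windows, because several genes have more than 1 start. The full estrogen response element, GGTCA and TGACC spaced by 3 bases, was in 0 of these 66 windows and in 14 of 35116 windows of all genes (0.04%). A single arm of that element, AGGTCA on either strand, was in 7 of 66 (10.61%) against 12.08% of all windows, and belonged to AGR3, ANXA9, CXCL12, MREG, PDZK1 and RARA. A GATA motif, AGATAA or its variants with a first T, a last G or both, on either strand, was in 8 of 66 (12.12%) against 22.33%, and belonged to ABAT, AGR2, CELSR2, ELOVL2, FHL2 and PKIB. Both shares among the members were below those of all windows, with no test. The motifs could not overlap a full element in these windows, since none held one. ADCY9, DEPTOR, EGR3, FKBP4, GREB1, MAPT, P2RY2, RERG, SGK3, SYBU, TFF1 and TFF3 had no window.

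The following 5 windows belong to genes called in either fit. Each is written 5′ to 3′ on the strand of its gene, ends at the base before the annotated start, and has in capitals the motif found. RARA (chr17:40308930-40309179, plus strand) held AGGTCA starting at base 21, FHL2 (chr2:105438514-105438763, minus strand) held TTATCT starting at base 185, and CELSR2 (chr1:109249289-109249538, plus strand) held TTATCA starting at base 29, the last 2 being GATA motifs read on the opposite strand. CA12 (chr15:63381847-63382096, minus strand) and MYB (chr6:135181058-135181307, plus strand) held none of the motifs and are shown because they had among the largest early decreases.
RARA: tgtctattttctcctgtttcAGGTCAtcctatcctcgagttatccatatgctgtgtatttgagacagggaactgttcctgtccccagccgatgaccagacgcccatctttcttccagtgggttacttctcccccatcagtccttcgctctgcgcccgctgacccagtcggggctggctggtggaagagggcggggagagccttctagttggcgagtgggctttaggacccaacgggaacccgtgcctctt
FHL2: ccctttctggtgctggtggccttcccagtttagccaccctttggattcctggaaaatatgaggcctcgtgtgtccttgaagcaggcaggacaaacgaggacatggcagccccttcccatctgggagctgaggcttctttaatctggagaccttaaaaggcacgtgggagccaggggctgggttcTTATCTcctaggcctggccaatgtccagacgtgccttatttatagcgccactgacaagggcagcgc
CELSR2: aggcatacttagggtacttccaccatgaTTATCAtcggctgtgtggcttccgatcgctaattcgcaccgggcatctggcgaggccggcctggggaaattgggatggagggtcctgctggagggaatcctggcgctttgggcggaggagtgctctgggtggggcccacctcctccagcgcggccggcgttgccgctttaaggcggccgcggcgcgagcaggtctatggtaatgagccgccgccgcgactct
CA12: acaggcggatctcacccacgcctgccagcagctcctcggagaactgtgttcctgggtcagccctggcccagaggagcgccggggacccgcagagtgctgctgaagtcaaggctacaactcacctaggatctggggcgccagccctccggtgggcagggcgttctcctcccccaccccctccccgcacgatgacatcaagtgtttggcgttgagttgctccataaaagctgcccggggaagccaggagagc
MYB: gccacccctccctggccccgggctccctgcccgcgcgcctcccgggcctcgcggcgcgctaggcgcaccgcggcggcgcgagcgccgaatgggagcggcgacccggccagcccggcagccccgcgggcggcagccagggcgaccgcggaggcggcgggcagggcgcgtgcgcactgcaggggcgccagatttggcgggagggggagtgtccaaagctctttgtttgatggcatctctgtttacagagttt

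Which of these genes changed after degrader treatment, and when, was asked first over the whole list. At 0.5 h RBBP8 rose and ANXA9, CA12, CXCL12, MYB and RARA fell. At 1 h RBBP8 and TPD52L1 rose, and OLFM1 and RAPGEFL1 joined the 5 genes that fell. At 2 h RBBP8 rose, and ABCA3, CA12, CXCL12, MYB, OLFM1 and RARA fell. At 4 h ABAT, HSPB8, RBBP8 and TPD52L1 rose, and MYB, OLFM1 and RARA fell. At 24 h RBBP8 rose, and FHL2 and OLFM1 fell.

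A gene was called at a false discovery rate under 0.1 in edgeR's quasi-likelihood test, adjusted over all 26057 genes. The 6 members called at 0.5 h were 11.5% of the list, where 0.476% of all genes were called. The shares were 17.3% against 1.25% at 1 h, 13.5% against 0.733% at 2 h, 13.5% against 0.833% at 4 h and 5.77% against 0.863% at 24 h. The members stood higher than most genes in level, and the part of that in the larger shares was not tested. The list was also chosen with earlier results of these data known, so the shares describe it and are not independent evidence. In the test of all 5 times together, 13 members (25.0%) were called, against 2.71% of all genes. The mean log2 fold change over the 5 times was above 0 for 5 of them (all genes 1.24%) and below 0 for 8 (all genes 1.47%). For genes that changed sign, such as WWC1 (-0.10 to 0.08) and DEPTOR (-0.17 to 0.16), that mean does not give a direction. Scaled by total counts alone, the same test called 8, of which 2 were above 0 and 6 below. The share of all genes under that scaling is not given here.

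The changes were small. The 32 calls against DMSO, 9 higher and 23 lower, had log2 fold changes between 0.14 and 0.51 in size. The median log2 fold change of the 52 genes was -0.02, -0.06, -0.04, 0.02 and -0.02 at 0.5, 1, 2, 4 and 24 h, where the median of all genes was 0.01, 0.01, 0.00, 0.01 and 0.00. At 1 h 35 of 52 genes were below 0 and at 4 h 25 of 52. Over the 5 times 11 genes were above 0 throughout, 15 below 0 throughout, and 26 changed sign. The 5 values of a gene share the same DMSO libraries, and the shares of all genes by sign are not given here. These counts of signs are therefore not read as results about the list.

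Since libraries with the same replicate number were harvested together, the tests were repeated with the replicate number as a block, which compares each library with its own harvest. The block retained every call named above and raised the members called to 12 at 0.5 h (23.1%, all genes 2.48%), 13 at 1 h (25.0%, all genes 3.25%), 14 at 2 h (26.9%, all genes 2.43%), 12 at 4 h (23.1%, all genes 2.49%) and 13 at 24 h (25.0%, all genes 2.65%). Over all times it called 24 members, 46.2% against 9.01% of all genes, of which 10 were above 0 (all genes 4.06%) and 14 below (all genes 4.95%). Over the comparisons with DMSO and the test of all times, 15 genes were called without the block, a further 11 only with it, and 26 in neither fit. The share of all genes in these sets is not given here. Here and below, calls with or without the block are those of edgeR. DESeq2, fitted without a block, also called some of the changes that edgeR called only with it, as given below.

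**Figure D1:**
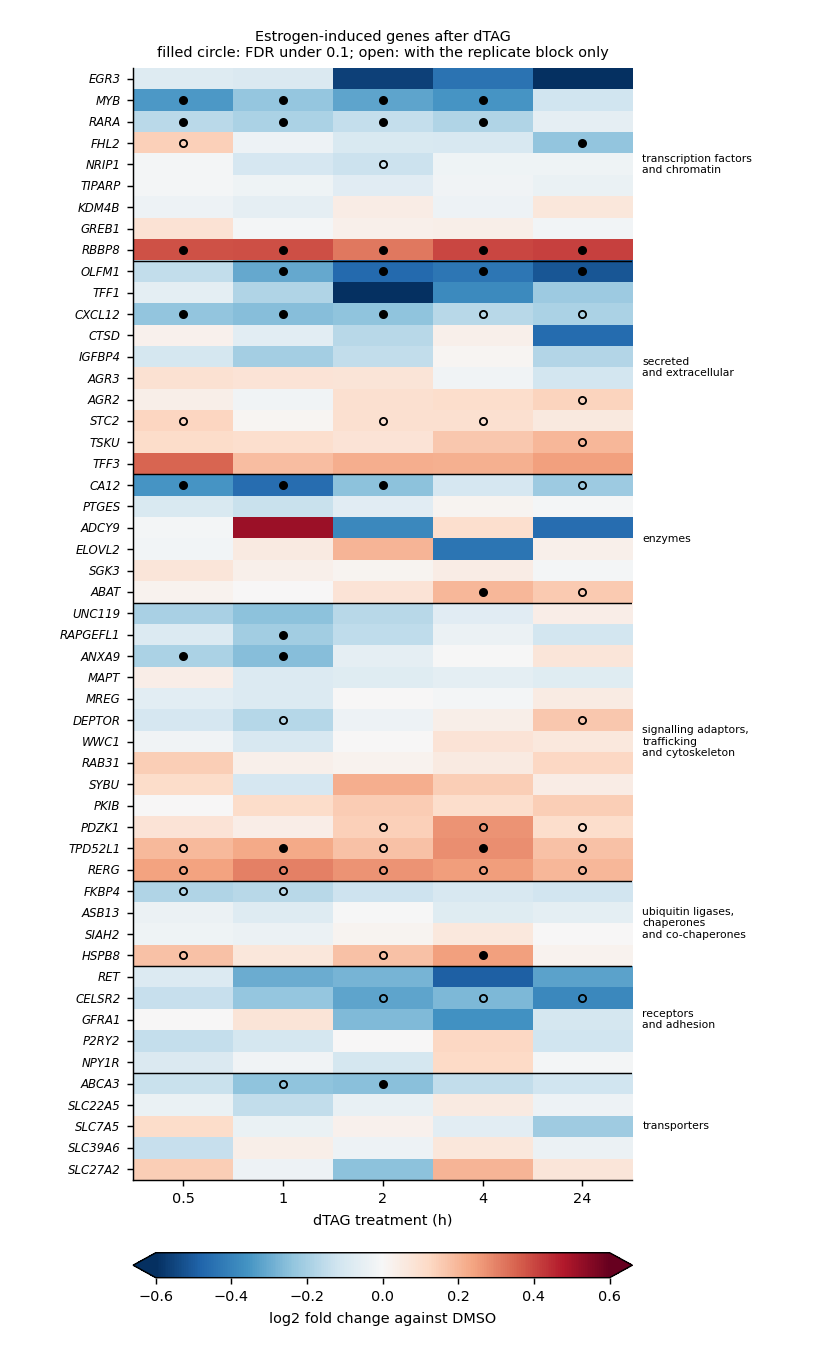
Log2 fold change against DMSO of the 52 genes (rows, grouped by role) at the 5 degrader times (columns, h), in colour; a filled circle marks an edgeR adjusted p under 0.1 and an open circle one reached only with the replicate block. RBBP8 is the only row with 5 filled circles, and most of the other filled circles at 0.5 to 2 h lie on genes below 0.

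Before degradation the genes differed widely in transcription. Per kilobase of gene span, STC2 had the highest level in DMSO at 49.4 ± 0.918 CPM per kb (SD, n = 4), followed by FKBP4 (13.4 CPM per kb), CXCL12 (7.84), SIAH2 (7.71), CTSD (6.63) and GREB1 (6.28). For CTSD an overlapping gene on the same strand held 556% of its count, so its place rests on reads that may be shared. The order of the last 4 is not resolved, because the DMSO ranges of neighbours overlapped from CXCL12 down to GREB1. ELOVL2 was lowest at 0.0146 CPM per kb, 3374 times below STC2. In 41 of the 51 neighbouring pairs in this order the ranges overlapped. The median of the 52 genes was 1.49 CPM per kb against 0.82 for 25986 genes, and 41 of 52 were above that median. Nascent reads fall over introns, so a span was used as the length.

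**Figure D2:**
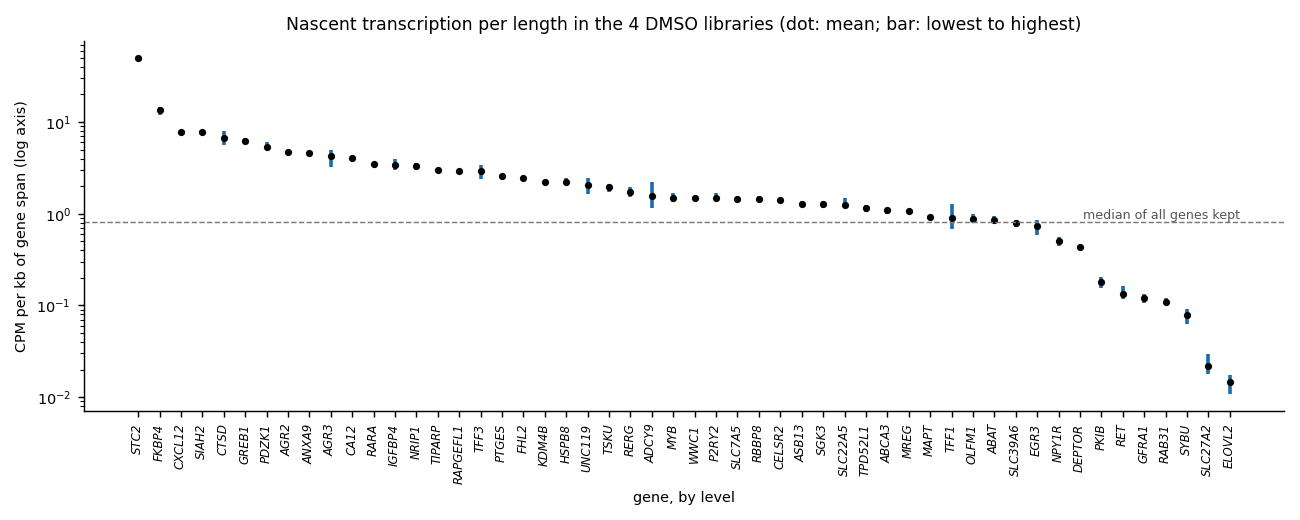
Level of the 52 genes in the 4 DMSO libraries, in CPM per kilobase of gene span on a log axis, ordered by mean; the dot is the mean and the bar runs from the lowest to the highest library. STC2 stands above the others at 49.4 CPM per kb, and SLC27A2 and ELOVL2 are lowest at 0.0221 and 0.0146.

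Among the 9 transcription factors and chromatin proteins, 4 were called without the block. The roles differ in size, so the numbers called in them are not compared. RBBP8 (ENSG00000101773, hg38 chr18:22798261-23026488), which encodes CtIP, a protein of DNA end resection, was at 349.4, 307.4, 357.0 and 319.3 CPM in the DMSO libraries. It was at 427.1, 412.6, 452.7 and 443.8 CPM at 0.5 h, and at 419.4, 451.2 and 459.3 CPM at 24 h. Every one of its 19 degrader libraries exceeded the highest DMSO library. The log2 fold change was 0.38 ± 0.05 (SE; edgeR adjusted p = 0.00065) at 0.5 h, 0.39 (adjusted p = 0.000259) at 1 h, 0.32 (adjusted p = 0.00145) at 2 h and 0.40 (adjusted p = 9.87e-05) at 4 h. At 24 h it was 0.41 ± 0.05 (adjusted p = 0.000269), or 33.0% above DMSO. It had reached this level by 0.5 h, and the difference between 24 h and 0.5 h was 0.03 ± 0.05 (edgeR adjusted p = 0.906).

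MYB (ENSG00000118513, chr6:135181308-135219173), a transcription factor of proliferating cells, fell. It was at 54.8, 51.03, 64.13 and 55.93 CPM in DMSO, at 44.28, 44.89, 45.49 and 43.67 CPM at 0.5 h, and at 45.42, 43.07, 44.15 and 44.45 CPM at 4 h. The ranges did not overlap at 0.5, 2 or 4 h, and at 1 h 1 library of 52.62 CPM lay above the lowest DMSO library. The log2 fold change was -0.34 ± 0.06 at 0.5 h (edgeR adjusted p = 0.00539), -0.23 ± 0.06 at 1 h (adjusted p = 0.0645), -0.32 ± 0.06 at 2 h (adjusted p = 0.00612) and -0.36 ± 0.06 at 4 h (adjusted p = 0.00205). At 24 h MYB was at 51.02, 50.88 and 54.25 CPM, -0.12 ± 0.06 from DMSO (0.709) and 0.22 ± 0.06 above 0.5 h (0.0827). The 1 h call was lost without any of 5 libraries (edgeR adjusted p up to 0.181, without DMSO replicate 3), and the call of 24 h against 0.5 h without any of 8 (up to 0.345, without 24 h replicate 4).

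RARA (ENSG00000131759, chr17:40309180-40357643), the retinoic acid receptor alpha, was at 177.6, 175.9, 162.4 and 166.9 CPM in DMSO, at 158.2, 147.9, 145.6 and 146.2 CPM at 1 h and at 150.3, 147.5, 153.4 and 151.9 CPM at 4 h. Its libraries from 0.5 to 4 h all lay below the lowest DMSO library. It fell by 0.16 ± 0.04 on the log2 scale at 0.5 h (edgeR adjusted p = 0.0704), 0.19 ± 0.04 at 1 h (adjusted p = 0.00946), 0.14 ± 0.04 at 2 h (adjusted p = 0.0978) and 0.18 ± 0.04 at 4 h (adjusted p = 0.0184). At 24 h it was at 160.4, 167.6 and 164.8 CPM, overlapping DMSO, with a log2 fold change of -0.05 ± 0.04 (0.865). The difference between 24 h and 1 h was 0.14 ± 0.04 (edgeR adjusted p = 0.1), and 0.15 ± 0.04 (0.0173) with the replicate block. The 0.5 h call was lost in 7 of 23 omissions of 1 library and the 2 h call in 18, both most clearly without DMSO replicate 1 (edgeR adjusted p = 0.222 and 0.322).

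FHL2 (ENSG00000115641, chr2:105357712-105438513), a LIM-domain coregulator of transcription, moved in opposite directions early and late. It was at 204.8, 194.7, 198.8 and 186.3 CPM in DMSO, 216.6, 218.5, 218.3 and 212.9 CPM at 0.5 h, and then 167.8, 167.0 and 164.9 CPM at 24 h. All 0.5 h libraries were above and all 24 h libraries below the DMSO range. At 0.5 h the log2 fold change was 0.14 ± 0.04, which passed with the replicate block (edgeR adjusted p = 0.0845) but not without it (0.257). This rise was also called by DESeq2, without a block. At 24 h the log2 fold change was -0.24 ± 0.05 (0.0168), a call lost without 24 h replicate 3 (0.1) or replicate 4 (0.113). The direct tests between times were clearer, with -0.24 ± 0.04 for 4 h against 0.5 h (edgeR adjusted p = 0.0114) and -0.38 ± 0.05 for 24 h against 0.5 h (0.000439). The -0.21 ± 0.05 for 24 h against 1 h (0.0345) was lost without 24 h replicate 2 (0.106), 3 (0.135) or 4 (0.148).

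EGR3, an immediate early zinc finger factor, was low, at 4.413, 4.938, 3.436 and 4.334 CPM in DMSO, 2.71, 3.115, 2.978 and 2.642 CPM at 2 h, and then 3.316, 2.931 and 2.113 CPM at 24 h. Both of these sets of degrader libraries lay below all DMSO libraries. Its log2 fold changes of -0.56 ± 0.16 at 2 h and -0.61 ± 0.18 at 24 h were the most negative in this role and did not pass (edgeR adjusted p = 0.202 and 0.177). Over all times it passed only with the block (0.0769, against 0.115 without).

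NRIP1, a nuclear receptor corepressor, was called only with the block, at 2 h (-0.13 ± 0.04, edgeR adjusted p = 0.0765). A long noncoding gene on the same strand overlaps it and held 78.6% of its count. GREB1, KDM4B and TIPARP, respectively a receptor cofactor, a histone demethylase and an ADP-ribosyltransferase, were called in neither fit and stayed between -0.07 and 0.09 on the log2 scale. GREB1, among the most responsive estrogen targets, was at 1074, 994.4, 1006 and 959.0 CPM in DMSO and at 1096, 1060, 1071 and 1056 CPM at 0.5 h, where its difference was 0.09 ± 0.04 (edgeR adjusted p = 0.627).

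**Figure D3:**
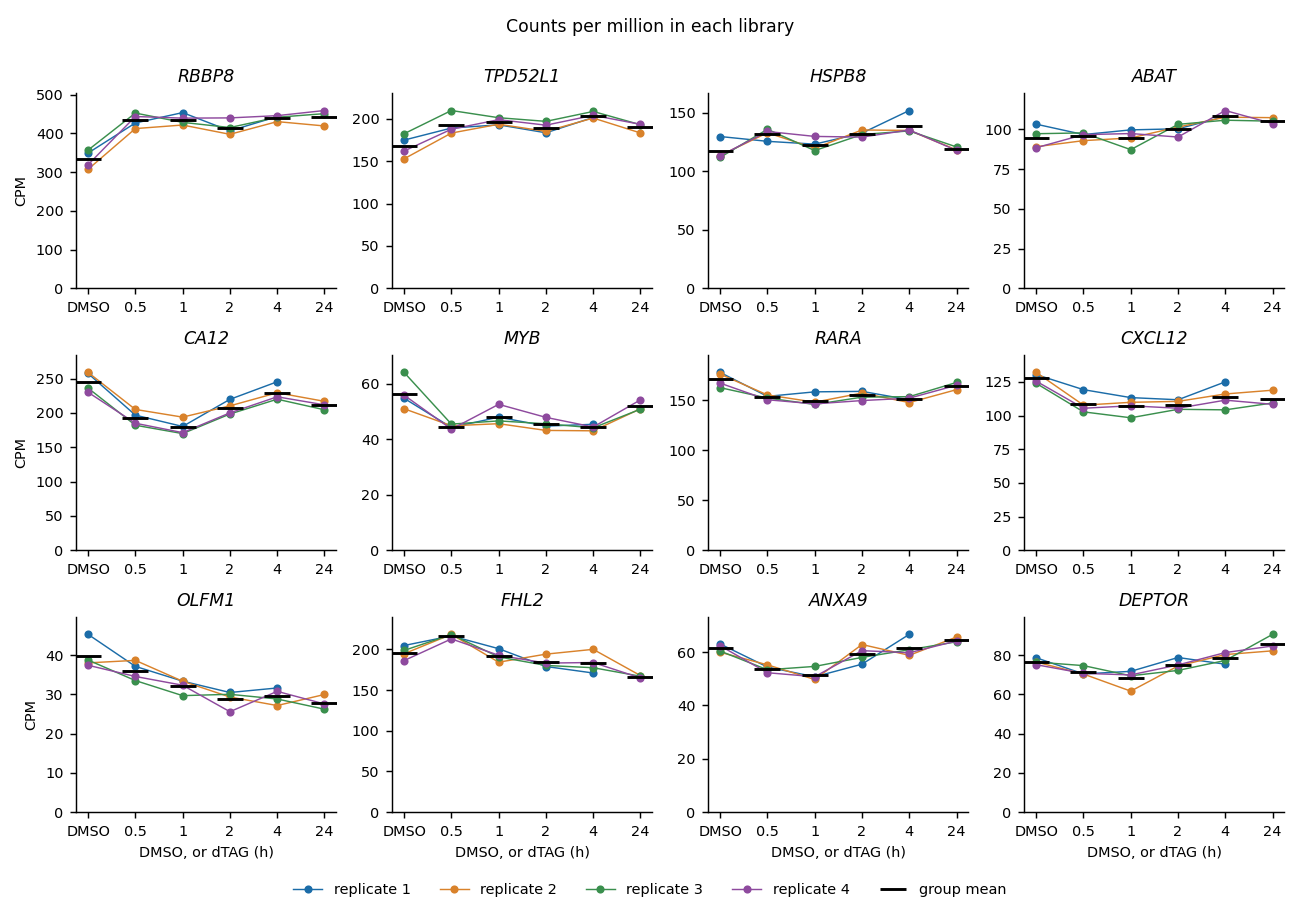
CPM in each of the 23 libraries (points, joined and coloured by replicate number) for 12 of the genes, by group on the horizontal axis, with a black dash for each group mean. For RBBP8 all degrader libraries stand above the DMSO libraries, and for CA12, MYB and RARA all 0.5 h libraries stand below them.

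Of the 10 secreted and extracellular proteins, CXCL12 and OLFM1 were called without the block. CXCL12 (ENSG00000107562, chr10:44370165-44386493), a chemokine that binds CXCR4, was at 130.5, 132.1, 124.0 and 125.6 CPM in DMSO, at 113.4, 109.9, 98.41 and 107.3 CPM at 1 h and at 118.9, 109.4 and 108.4 CPM at 24 h. It was lower than DMSO of the same replicate in 19 of 19 libraries, though these pairs share the DMSO libraries and are not independent. At 4 h alone did 1 library (125.1 CPM) reach the DMSO range. It fell by 0.24 ± 0.06 on the log2 scale at 0.5 h (edgeR adjusted p = 0.0966), 0.26 ± 0.06 at 1 h (0.0322) and 0.24 ± 0.06 at 2 h (0.0557). The values at 4 h (-0.17 ± 0.06) and 24 h (-0.19 ± 0.06) passed only with the block (edgeR adjusted p = 0.00669 and 0.0158, against 0.316 and 0.275). Leaving out 1 library at a time ended the 0.5 h call in 17 of 23 cases (up to 0.325, without 0.5 h replicate 3), the 1 h call without DMSO replicate 2 (0.107) or 1 h replicate 3 (0.141), the 2 h call in 6 cases (up to 0.192, without 2 h replicate 3) and that over all times in 11 (up to 0.221, without DMSO replicate 2).

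OLFM1 (ENSG00000130558, chr9:135075422-135121180), a secreted olfactomedin glycoprotein, had the largest decrease of all calls. Its levels were 45.26, 38.0, 38.72 and 37.39 CPM in DMSO, 37.11, 38.64, 33.5 and 34.54 CPM at 0.5 h, 30.46, 29.31, 30.0 and 25.57 CPM at 2 h, and then 29.95, 26.21 and 27.54 CPM at 24 h. From 1 h on no library reached the DMSO range. The log2 fold change was -0.15 ± 0.07 at 0.5 h (edgeR adjusted p = 0.647), -0.31 ± 0.07 at 1 h (adjusted p = 0.0505), -0.47 ± 0.07 at 2 h (adjusted p = 0.00155), -0.43 ± 0.07 at 4 h (adjusted p = 0.00342) and -0.51 ± 0.08 at 24 h (adjusted p = 0.00136). The decrease was larger at 24 h than at 0.5 h by 0.37 ± 0.08 on the log2 scale (0.022). The 1 h call was lost without DMSO replicate 1 (0.188) or 1 h replicate 3 (0.187), the 24 h against 0.5 h call without 24 h replicate 3 (0.149) or replicate 4 (0.112), and the 4 h against 0.5 h call (-0.28 ± 0.07, 0.0963) in 19 of 23 cases (up to 0.279, without 0.5 h replicate 2).

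STC2, a stanniocalcin and the gene with the highest level per length, was at 679.7, 692.9, 677.4 and 662.1 CPM in DMSO and at 728.2, 764.7, 731.0 and 738.3 CPM at 0.5 h. Its 0.5, 2 and 4 h libraries were all above the DMSO range. The log2 fold changes of 0.13 ± 0.03 at 0.5 h, 0.10 at 2 h and 0.10 at 4 h passed with the block (edgeR adjusted p = 0.0135, 0.0628 and 0.0717) and not without it (0.134, 0.329 and 0.319). DESeq2 also called STC2 at 0.5 h, at 2 h and over all times. AGR2, a disulfide isomerase of the endoplasmic reticulum, was at 201.6, 187.1, 204.4 and 193.7 CPM in DMSO and at 214.1, 205.8 and 228.5 CPM at 24 h, above every DMSO library, and its 0.14 ± 0.05 was called only with the block (0.0458, against 0.445). Its neighbour and paralogue AGR3, which lies 26 kb away on chromosome 7, was lower at 24 h than at 0.5 h only with the block (-0.23 ± 0.06, 0.03). TSKU, a small extracellular proteoglycan, was likewise called only with the block at 24 h (0.23 ± 0.06, edgeR adjusted p = 0.0311).

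The classical estrogen targets TFF1, TFF3, CTSD and IGFBP4 were called in neither fit. TFF1, a trefoil peptide, had few counts, with 3.701, 5.487, 2.935 and 3.225 CPM in DMSO and 3.097, 2.157, 2.252 and 1.785 CPM at 2 h, a difference of -0.72 ± 0.33 (edgeR adjusted p = 0.662). TFF3 had positive values throughout, with 0.35 ± 0.17 at 0.5 h (0.682), where replicate 1 was at 20.27 CPM and the others at 11.68, 12.28 and 11.46 CPM. CTSD, a lysosomal protease, shares its strand with an overlapping gene that held 556% of its count, so its own transcription was not resolved.

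Of the 6 enzymes, CA12 and ABAT were called. CA12 (ENSG00000074410, chr15:63321378-63381846), a membrane carbonic anhydrase, was at 257.5, 259.0, 236.2 and 230.1 CPM in DMSO. It was at 196.8, 205.1, 182.1 and 185.0 CPM at 0.5 h, at 180.3, 193.9, 169.9 and 171.3 CPM at 1 h, and at 245.4, 229.4, 220.0 and 223.5 CPM at 4 h. All libraries at 0.5, 1, 2 and 24 h were below the DMSO range, whereas the 4 h libraries overlapped it. The log2 fold change was -0.35 ± 0.05 at 0.5 h (edgeR adjusted p = 0.00277), -0.46 ± 0.05 at 1 h (adjusted p = 0.000243), -0.25 ± 0.05 at 2 h (adjusted p = 0.0366) and -0.10 ± 0.05 at 4 h (adjusted p = 0.768). At 1 h it had fallen by 27.2%. The return was itself called, with 0.26 ± 0.05 for 4 h against 0.5 h (0.0366) and 0.24 ± 0.06 for 24 h against 1 h (0.0485). At 24 h CA12 was at 216.9, 204.6 and 211.8 CPM, and in edgeR its -0.22 ± 0.06 passed only with the block (0.00189, against 0.115). The 24 h decrease was also called by DESeq2.

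Several CA12 calls rested on single libraries. The 2 h call was lost without DMSO replicate 1 (edgeR adjusted p = 0.148) or 2 (0.145), or 2 h replicate 3 (0.146) or 4 (0.139). That for 4 h against 0.5 h was lost without 0.5 h replicate 3 (0.129) or 4 (0.116), and that for 24 h against 1 h without 1 h replicate 3 (0.127) or 4 (0.118), or 24 h replicate 2 (0.174) or 4 (0.148).

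ABAT (ENSG00000183044, chr16:8674596-8784575), the GABA transaminase, was at 103.2, 89.03, 97.2 and 88.39 CPM in DMSO, at 108.1, 107.6, 105.7 and 111.8 CPM at 4 h and at 107.3, 105.1 and 103.6 CPM at 24 h. It was above the DMSO range at 4 and 24 h and within or across it earlier. It rose by 0.20 ± 0.05 at 4 h (edgeR adjusted p = 0.0714), a call lost in 9 of 23 omissions (up to 0.266, without DMSO replicate 4), and the call over all times (0.0691) was lost in 13 (up to 0.176, without 4 h replicate 4). The 24 h value of 0.17 ± 0.05 passed with the block (0.0754) and not without it (0.294).

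ELOVL2, PTGES and SGK3, which act in fatty acid elongation, prostaglandin synthesis and phosphoinositide signalling, were called in neither fit. SGK3 shares its strand with a readthrough gene that held 136.1% of its count. ADCY9, an adenylyl cyclase, did not scale with library depth: its count was between 1845 and 3161 in every library, while total counts varied from 4408544 to 17571616. The Pearson correlation across the 23 libraries of its log count with the log total was 0.185, whereas the median of the other 20 members with a median count over 1000 was 0.988 and their lowest 0.953. Its CPM, from 158.2 to 583.7, was divided by a depth that its count did not follow, and its log2 fold changes, from -0.46 to 0.52, are given with that limit. Such behaviour was rare: 59 of 2280 genes with a median count over 1000 had a correlation under 0.5.

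**Figure D4:**
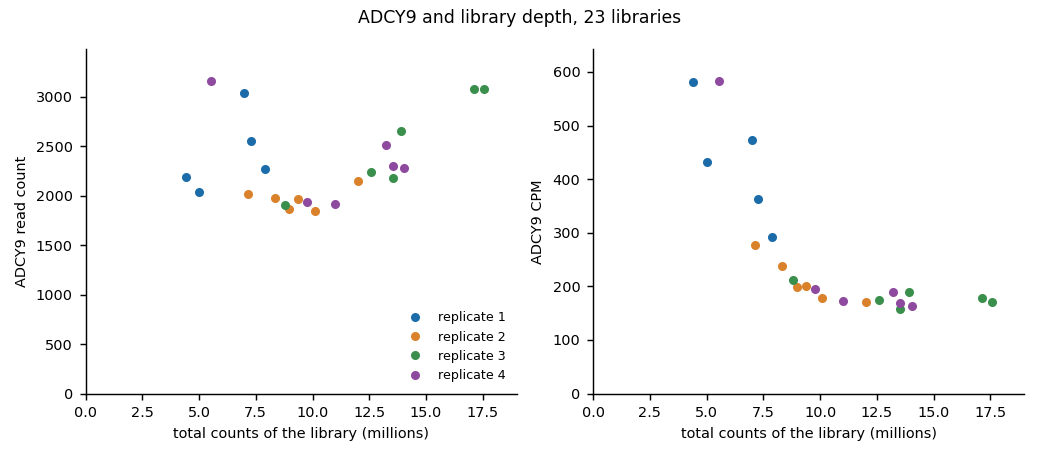
Read count (left) and CPM (right) of ADCY9 against the total count of each of the 23 libraries, with 1 point per library coloured by replicate. The count lies between 1845 and 3161 at every depth, and the CPM is highest, up to 583.7, in the shallow libraries.

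Of the 13 signalling, trafficking and cytoskeletal proteins, 5 were called without the block, and they took different courses. TPD52L1 (ENSG00000111907, chr6:125119049-125264407), a coiled-coil protein of vesicle traffic, was at 174.9, 152.8, 182.4 and 162.0 CPM in DMSO, at 192.9, 193.6, 201.3 and 199.0 CPM at 1 h and at 201.6, 200.9, 208.7 and 204.1 CPM at 4 h. Every degrader library exceeded every DMSO library, as for RBBP8. It rose by 0.23 ± 0.05 at 1 h (edgeR adjusted p = 0.0296) and 0.28 ± 0.05 at 4 h (0.00533). The values at 0.5, 2 and 24 h (0.20, 0.17 and 0.18) passed with the block (edgeR adjusted p = 0.00559, 0.00923 and 0.0181) and not without it (0.123, 0.176 and 0.208). Those at 0.5 and 2 h were also called by DESeq2. The 1 h call was lost without DMSO replicate 2 (0.112) or 4 (0.115), and that over all times (0.0327) without the same libraries (0.111 and 0.137).

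ANXA9 (ENSG00000143412, chr1:150982249-150995634), an annexin, fell in the first hour. It was at 63.06, 59.95, 60.41 and 62.39 CPM in DMSO, 54.42, 55.24, 53.39 and 52.28 CPM at 0.5 h, 50.76, 49.75, 54.65 and 50.78 CPM at 1 h, and then 65.67, 63.88 and 64.21 CPM at 24 h. The libraries of the first hour were all below the DMSO range and those of 24 h all above it. The log2 fold change was -0.19 ± 0.04 at 0.5 h (edgeR adjusted p = 0.0847), -0.25 ± 0.05 at 1 h (0.00609) and 0.07 ± 0.05 at 24 h (0.855), and the rise from 1 h to 24 h was 0.33 ± 0.05 (0.00211). The 0.5 h call was lost in 14 of 23 omissions (up to 0.248, without 0.5 h replicate 3), and the call of 4 h against 0.5 h (0.19 ± 0.04, 0.0665) in 7 (up to 0.181, without 0.5 h replicate 4). The call of 4 h against 0.5 h was also lost with DESeq2.

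DEPTOR (ENSG00000155792, chr8:119873717-120050918), an inhibitor of mTOR, was at 78.71, 76.54, 76.52 and 75.18 CPM in DMSO, 71.79, 61.7, 69.53 and 69.98 CPM at 1 h, and then 82.25, 90.65 and 84.73 CPM at 24 h. The 0.5 and 1 h libraries were below and the 24 h libraries above the DMSO range. Against DMSO its -0.17 ± 0.05 at 1 h and 0.16 ± 0.05 at 24 h were called only with the block (edgeR adjusted p = 0.0475 and 0.0577, against 0.109 and 0.21). Between 1 h and 24 h it rose by 0.33 ± 0.05 without the block (0.00211).

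WWC1 (ENSG00000113645, chr5:168291645-168472303), the Hippo pathway scaffold KIBRA, was at 282.5, 257.5, 266.3 and 265.6 CPM in DMSO, 247.7, 244.5, 253.6 and 257.4 CPM at 1 h, and then 290.3, 282.9, 279.3 and 282.2 CPM at 4 h. It was not called against DMSO, and rose from 1 h to 24 h by 0.16 ± 0.04 (edgeR adjusted p = 0.0485), a call lost without 1 h replicate 1 (0.146) or 2 (0.116) or 24 h replicate 3 (0.125) or 4 (0.268). Its call over all times (0.0677) was lost in 11 of 23 omissions (up to 0.196, without 1 h replicate 1). RAPGEFL1 (ENSG00000108352, chr17:40177010-40195656), related to exchange factors of Rap proteins and 113.5 kb from RARA, was at 56.51, 51.99, 53.11 and 56.84 CPM in DMSO and at 43.12, 48.06, 46.21 and 51.33 CPM at 1 h. All 1 h libraries were below the DMSO range, and it fell by 0.21 ± 0.05 at 1 h (0.0811), a call lost in 14 of 23 omissions (up to 0.272, without 1 h replicate 1) and with DESeq2 (adjusted p = 0.122).

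RERG, a RAS-like growth inhibitor, varied widely between replicates in DMSO (420.9, 364.3, 467.8 and 419.2 CPM). Paired with DMSO of the same replicate, it was higher in 19 of 19 libraries, though these pairs share the DMSO libraries. At 1 h it was at 498.7, 473.5, 530.2 and 558.5 CPM, above every DMSO library. Its log2 fold changes of 0.20 to 0.30 were not called without the block (edgeR adjusted p of 0.109 at 1 h) and were called at all 5 times with it, from 0.000128 at 1 h to 0.0181 at 24 h. RERG was also called by DESeq2 at 1 and 2 h. PDZK1, a scaffold of membrane transporters, was called by edgeR only with the block, at 2, 4 and 24 h, with 0.27 ± 0.04 at 4 h (0.000171). Its 4 h rise was also called by DESeq2. MAPT, MREG, PKIB, RAB31, SYBU and UNC119, which act in microtubules, organelle transport, kinase A inhibition and vesicle traffic, stayed between -0.25 and 0.22 and were called in neither fit. RSKR, on the same strand, held 251.4% of the count of UNC119, PECR 66.8% of that of MREG, and an unnamed gene 38.1% of that of PKIB.

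**Figure D5:**
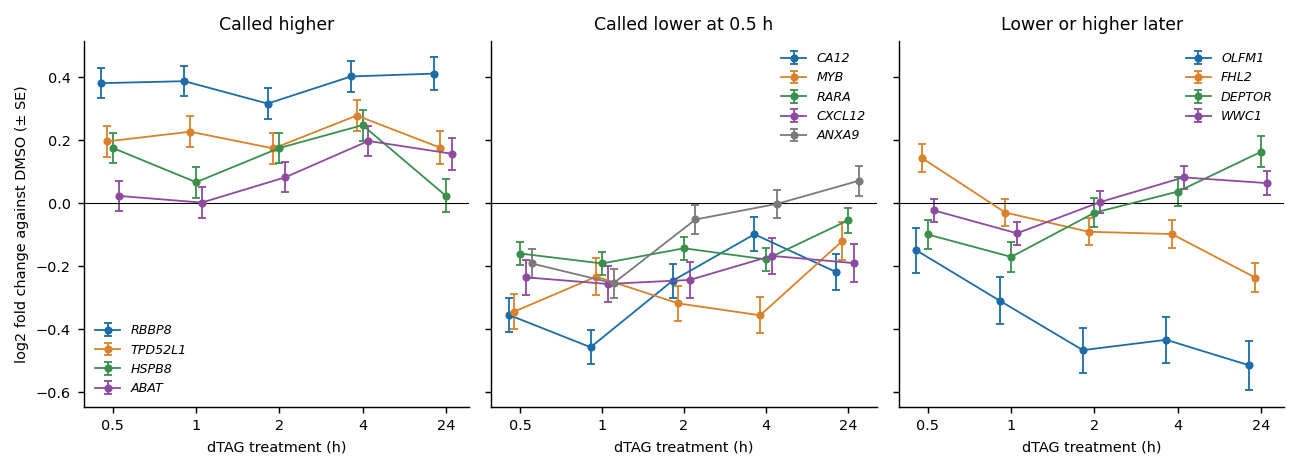
Log2 fold change against DMSO (points, with bars of 1 SE) by time after degrader addition (h, evenly spaced) for genes called higher, genes called lower at 0.5 h, and genes lower or higher later. RBBP8 is near 0.4 at each time, CA12 is lowest at 1 h with -0.46, and OLFM1 and FHL2 are lowest at 24 h with -0.51 and -0.24.

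Among the 4 ubiquitin ligases and chaperones, HSPB8 (ENSG00000152137, chr12:119171555-119224855), a small heat shock protein, was at 129.5, 113.3, 111.7 and 113.1 CPM in DMSO, at 151.7, 134.7, 134.3 and 135.1 CPM at 4 h and at 118.1, 120.6 and 117.6 CPM at 24 h. The 4 h libraries were all above the DMSO range, and those of 24 h lay inside it. It rose by 0.25 ± 0.05 at 4 h (edgeR adjusted p = 0.0141) and was at 0.02 ± 0.05 at 24 h (0.99). At 0.5 and 2 h it was at 0.18, called by edgeR only with the block (0.0403 at both, against 0.187 and 0.162). DESeq2 also called HSPB8 at these 2 times. FKBP4, a co-chaperone of steroid receptors, fell only in the fit with the block, at 0.5 h (-0.19 ± 0.04, edgeR adjusted p = 0.0248) and 1 h (-0.17 ± 0.04, 0.0444). SIAH2 and ASB13, subunits of ubiquitin ligases, stayed between -0.08 and 0.06.

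None of the 5 receptors and adhesion proteins was called without the block. CELSR2, an adhesion receptor of the cadherin family, was at 38.01, 36.9, 35.72 and 35.68 CPM in DMSO, at 32.91, 29.39, 29.05 and 26.42 CPM at 2 h and at 28.34, 26.77 and 28.82 CPM at 24 h. The 19 pairs with DMSO of the same replicate share the DMSO libraries. CELSR2 was lower in 18 of these pairs, the exception being 4 h replicate 1 at 40.64 CPM. Its -0.32 at 2 h, -0.30 at 4 h and -0.34 ± 0.08 at 24 h were called by edgeR only with the block (edgeR adjusted p = 0.0185, 0.0398 and 0.0197). The decrease at 24 h was also called by DESeq2, without a block. The kinase receptor RET and its co-receptor GFRA1 bind ligands of the GDNF family. RET had the most negative value of this role, -0.49 ± 0.18 at 4 h (edgeR adjusted p = 0.398), where its libraries, between 3.719 and 5.843 CPM, were all below DMSO. NPY1R and P2RY2, receptors for neuropeptide Y and nucleotides, were not called against DMSO. With the block P2RY2 passed in 4 h against 0.5 h (0.26 ± 0.08, edgeR adjusted p = 0.087). A long noncoding gene on the same strand overlaps P2RY2 and held 24.6% of its count.

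Of the 5 transporters, ABCA3 (ENSG00000167972, chr16:2275881-2340746), a lipid transporter, was at 74.02, 73.25, 64.06 and 71.05 CPM in DMSO, at 60.11, 58.56, 57.87 and 62.59 CPM at 1 h and at 61.69, 62.7, 58.61 and 54.06 CPM at 2 h. The 1 and 2 h libraries were all below the DMSO range. It fell by 0.25 ± 0.06 at 2 h (edgeR adjusted p = 0.0976), a call lost in 15 of 23 omissions (up to 0.332, without 2 h replicate 4). The -0.24 ± 0.05 at 1 h passed only with the block (0.0197, against 0.101). SLC7A5, an amino acid exchanger, was called lower at 24 h than at 0.5 h by edgeR only with the block (-0.29 ± 0.06, edgeR adjusted p = 0.00458, against 0.105). This difference was also called by DESeq2. SLC22A5, SLC27A2 and SLC39A6, carriers of carnitine, fatty acids and zinc, were called in neither fit.

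The 26 genes called in neither fit, against DMSO or over all times, were not measured equally well. The standard error of their log2 fold changes ran from 0.0403 to 0.445 with a median of 0.114, and 24 of their 130 values against DMSO exceeded 0.2 in size. Their smallest edgeR adjusted p against DMSO without the block was 0.398. A change of the size seen in CXCL12 or ANXA9 was therefore not detectable in many of them.

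Whether a response was early, transient or late was tested by comparing degrader times directly. From 0.5 h to 4 h ANXA9 and CA12 rose, and FHL2 and OLFM1 fell, 4 members (7.69%) against 0.871% of all genes. DESeq2 did not call the ANXA9 rise in this comparison. From 0.5 h to 24 h ANXA9, DEPTOR and MYB rose, and FHL2 and OLFM1 fell, 5 members (9.62%) against 1.99% of all genes. From 1 h to 24 h ANXA9, CA12, DEPTOR and WWC1 rose, and FHL2 fell, again 5 members against 2.08% of all genes. With the block 9, 10 and 9 members (17.3%, 19.2% and 17.3%) were called in these comparisons, against 4.15%, 6.34% and 6.64% of all genes. These comparisons share the degrader libraries with those against DMSO and are not separate evidence. For RBBP8 and TPD52L1 the differences in these 3 comparisons of times were at most 0.08 in size and were not called.

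The receptor's partner and cofactor genes were examined by a list of 24, of which 23 passed the filter. GATA3, which helps open receptor binding sites, fell by 0.22 ± 0.03 on the log2 scale at 0.5 h (edgeR adjusted p = 0.00112), 0.22 at 1 h (adjusted p = 0.000717), 0.16 at 2 h (adjusted p = 0.0131) and 0.13 at 4 h (adjusted p = 0.0551). TLE3, a corepressor, fell at the same times, by 0.30 ± 0.05 at 1 h (0.00223). TFAP2A fell at 0.5 h by 0.19 ± 0.04 (0.0298) and at 2 h by 0.15 ± 0.04 (0.0837). None of the 23 was called higher against DMSO, and none was called at 24 h. In counts, 3, 2 and 2 of 23 were called at 0.5, 1 and 4 h, all of them lower. Single libraries were left out for the 52 genes and not for this list. FOXA1 ran from -0.09 to -0.01 and was not called.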

How the data were processed

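The authors deposited raw counts per Ensembl gene for 23 PRO-seq libraries of T47D Clone 28. Per the labels, adapters were removed with cutadapt 1.8.1, reads were aligned to hg38 with Bowtie2 2.4.4 and files were handled with SAMtools 1.9, as named in the submitters' processing notes; the annotation and strand setting used for counting are not given in the sources used here. A gene nested in a longer one exceeded it in 15.521% of 2197 pairs on opposite strands and in 0.61% of 2624 pairs on the same strand, so strand was used. Symbols came from GENCODE release 44, which matched 60463 of 60605 identifiers. Replicate 1 at 24 h was not analysed here.

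Genes were kept by filterByExpr (minimum count 10, minimum total 15), scaled by TMM and tested over all 6 groups with edgeR 4.0.16 in R 4.3.3 (glmQLFit, glmQLFTest, two-sided, Benjamini-Hochberg over 26057 genes, threshold 0.1). CPM values use the TMM library sizes. The study's methods name DESeq2 with a false discovery rate of 0.1; DESeq2 1.42.0 was run as an alternative. The other alternatives were the replicate block, RLE and total-count scaling, no low-count filter, and leaving out libraries. Each comparison was also fitted on its own groups and DMSO, and the time course on DMSO to 4 h only. The tests were checked on simulated counts.

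Replicate numbers pair the libraries because, per the labels, each number marks a shared harvest. Deviations from group means (log CPM, prior count 2) correlated at a mean of 0.29 over 55 pairs with the same number and -0.08 over 165 with different numbers. The mean was 0.58 and 0.43 within replicates 1 and 3, but only 0.09 and 0.14 within replicates 2 and 4. The block lowered the common dispersion from 0.0249 to 0.00489. The 52 genes, their roles and the list of receptor cofactors were chosen with earlier results of these data known, and part of the cofactor list's results is not reported here. All 52 are named, and values per library are given for the 20 called genes with the smallest time-course p. Totals from 4408544 to 17571616 limit the precision of genes of low count, such as TFF1.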

Additional observations from a re-analysis of the deposited data

Results flagged for a closer look

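In 10 of 105 groups of 4 libraries 1 library stood apart from the others by Dixon's test, and chance gives about 1 in 20. OLFM1 was at 45.26 CPM in DMSO replicate 1, with the others between 37.39 and 38.72 CPM. HSPB8 was at 129.5 CPM in DMSO replicate 1 (others 111.7 to 113.3 CPM) and at 151.7 CPM in 4 h replicate 1 (others 134.3 to 135.1 CPM). DEPTOR was at 74.72 CPM in 0.5 h replicate 3 (others 70.41 to 70.76 CPM), WWC1 at 251.5 CPM in 0.5 h replicate 1 (others 266.5 to 268.5 CPM), EGR3 at 3.324 CPM in 1 h replicate 4 (others 4.106 to 4.248 CPM) and AGR2 at 187.3 CPM in 0.5 h replicate 2 (others 205.5 to 206.9 CPM). ADCY9, whose count did not follow depth, was at 473.7, 292.7 and 580.9 CPM in replicate 1 at 0.5, 2 and 4 h, with the other libraries of those groups between 158.2 and 201.3 CPM.

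The response differed between times by direct test (edgeR, adjusted over all genes) for these genes. From 0.5 h to 4 h the log2 differences were 0.19 for ANXA9 (adjusted p = 0.0665), 0.26 for CA12 (0.0366), -0.24 for FHL2 (0.0114) and -0.28 for OLFM1 (0.0963). From 0.5 h to 24 h they were 0.26 for ANXA9 (adjusted p = 0.00763), 0.26 for DEPTOR (0.00939), -0.38 for FHL2 (0.000439), 0.22 for MYB (0.0827) and -0.37 for OLFM1 (0.022). From 1 h to 24 h they were 0.33 for ANXA9 (adjusted p = 0.00211), 0.24 for CA12 (0.0485), 0.33 for DEPTOR (0.00211), -0.21 for FHL2 (0.0345, lost without any 1 of the 3 libraries of 24 h) and 0.16 for WWC1 (0.0485).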

How the results depend on the processing

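The replicate block kept all 59 calls made without it, RLE scaling 58, DESeq2 57, the fit without a filter 39 and scaling by total counts 32. Fits on only the compared groups, with the DMSO libraries always included, kept 15 of 46. No call changed direction. Without all libraries of replicate 1, 2, 3 or 4, 46, 30, 16 and 15 of the 59 were kept. The member counts that follow come without the share of all genes called in each alternative fit, apart from the block, given earlier. They are therefore not read as results about the members. Of the 52 genes, those called at 0.5 h numbered 6, against 12 with the block, 3 unfiltered, 10 with DESeq2 and 0 when only the compared groups were fitted. At 1 h 9 were called, against 5 with total counts and 3 with only the compared groups. At 2 h 7 were called, against 14 with the block, 4 with total counts, 11 with DESeq2 and 2 with only the compared groups. At 4 h 7 were called, against 12 with the block, 4 with total counts (2 higher, 2 lower) and 1 with only the compared groups. At 24 h 3 were called, against 13 with the block and 5 with DESeq2. For 4 h against 0.5 h 4 became 9 with the block, 0 with total counts, 1 unfiltered and 0 with only the compared groups. For 24 h against 0.5 h 5 became 10 with the block, and for 24 h against 1 h 5 became 9 with the block and 3 with total counts, unfiltered and with only the compared groups. Over all times 13 became 24 with the block and 8 with total counts. Fits on only the compared groups have fewer libraries to estimate the spread; the cause of the other shifts was not tested. The median log2 fold change at 1 h was -0.0578, and -0.0689 with the block, -0.0855 with total counts and -0.0722 with only the compared groups; at 4 h 0.0151 became -0.0356 with total counts; at 24 h -0.0209 became -0.0026 with the block, 0.012 with total counts and -0.0083 unfiltered. The block ended no call, and the calls it added that the report does not name are over all times or between degrader times. With a replicate or a single library left out, the members called ran from 1 to 6 at 0.5 h, 2 to 11 at 1 h, 2 to 8 at 2 h, 3 to 8 at 4 h, 1 to 6 at 24 h, 0 to 5 for 4 h against 0.5 h, 1 to 6 for 24 h against 0.5 h, 0 to 8 for 24 h against 1 h and 3 to 15 over all times, and the medians from -0.0332 to -0.0044, -0.0825 to -0.0368, -0.0685 to -0.0312, -0.0262 to 0.0399 and -0.0465 to -0.0094 at the 5 times. The lowest counts without 1 library were 3 at 0.5 h and 3 at 2 h (without DMSO replicate 2), 5 at 1 h (without 1 h replicate 3), 2 at 24 h (without 24 h replicate 3), 1 for 4 h against 0.5 h (without 0.5 h replicate 3), 3 for 24 h against 0.5 h (without 24 h replicate 3) and 2 for 24 h against 1 h (without 24 h replicate 4). Of the 59 calls, 33 held in all 23 such omissions. Depth limits genes of low count such as TFF1, EGR3 and RET.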
